A study of Macaca fascicularis with 132 samples.

Results

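The comparison described here is between control cultures of peripheral blood mononuclear cells (PBMCs) at 6 h and at 2 h. It takes 24 libraries, all those whose labels give control treatment and one of these times, out of a series with 12 libraries in each of 11 groups. The cells came from 4 cynomolgus macaques (Macaca fascicularis), 38142 and 38155 labelled female and 38147 and 38157 labelled male, with 3 numbered libraries for each animal and time. Ages are not given in the labels, and the series' design text speaks of 6 animals, of which these 4 are analysed here. Control cultures received no cytokine (0 ng/ml). Control cells at 0 h (12 libraries) serve only as a reference for the level before culture. Cultures of the same animals with heterodimeric IL-15 at 40 ng/ml, sampled at 2 h and 6 h (24 libraries), serve as a separate set of libraries for the same interval. Because the tables hold gene IDs without symbols, the label PBMC was not checked against marker genes. The question was which of the changes seen by 2 h of culture had gone back by 6 h.

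PBMCs are the lymphocytes and monocytes of blood, separated from red cells and granulocytes. Placing such cells in culture changes their medium, temperature and contacts, and cells are known to answer such changes with a fast wave of transcription. The RNAs of this first wave are typically short-lived, so their level falls soon after transcription stops, whereas other transcripts settle at a new level. The amount of an RNA in a bulk sample depends both on how many cells of a type are present and on how much each holds. These 2 cannot be told apart here, and the value is always a share of all counts (CPM, the count scaled to a fixed library total).

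The 2 h libraries held 16423972 to 33509010 counts and the 6 h libraries 20431703 to 47509688. Summed over the 3 libraries of an animal, they gave 61862555 to 83275626 counts at 2 h and 72629401 to 106266194 at 6 h. Sister libraries, those of the same animal and time, differed by more than sampling noise in all 24 pairs (chi-square per degree of freedom at least 3.57). A single library of these 24, the third of animal 38157 at 2 h, lay apart from its sisters. Its root mean square log2 distance to the nearer one was 0.487, whereas the median over all libraries was 0.211 and the limit set from their spread 0.403. With that library left out, 4875 genes were higher and 4610 lower at 6 h, beside the 4884 and 4757 described next.

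Between 2 h and 6 h nearly as many genes fell as rose in control culture, and the median rise was somewhat larger than the median fall. Of 18197 genes tested, 4884 were higher at 6 h (26.8%) and 4757 lower (26.1%; edgeR quasi-likelihood test, adjusted p under 0.05, n = 4 animals). Most changes were modest, with a median fold of 1.76 for genes that rose and 1.61 for genes that fell. Changes of at least 2-fold were found for 1861 genes that rose and 1396 that fell, and changes of at least 4-fold for 408 and 293. The fitted change of the median gene was 0.00177 (log2), so the near balance of both directions is relative to a scaling that left the typical gene in place. With other scalings the balance of counts tipped either way, to 4690 higher and 5005 lower with RLE and to 5163 higher and 4520 lower with the upper quartile.

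Genes that rose were less abundant than genes that fell. The median level of the risen genes went from 8.82 CPM at 2 h to 15.3 CPM at 6 h, and that of the fallen genes from 40.2 CPM to 25.6 CPM. Among the risen genes, 90 had at most 3 counts over all 4 sums at 2 h. Among the fallen genes, 17 had at most 3 counts over all 4 sums at 6 h. For these genes, the size of the change depends on the fit's treatment of near-zero counts and is not quoted. Among the 2789 genes with at least 100 CPM at either time, 633 rose and 1401 fell, and 72.9% were called. Between 20 and 100 CPM the directions were nearly even, with 1552 and 1634 of 4549 genes. Below 1 CPM, 807 rose and 471 fell of 5462 genes. The direction of change thus went with abundance, from more rises among rare transcripts to more falls among abundant ones.

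The RNA pool became less concentrated on its most abundant members. The 20 most abundant genes took 9.80%, 10.3%, 9.56% and 10.4% of the counts at 2 h in animals 38142, 38147, 38155 and 38157, and 8.21%, 8.87%, 8.63% and 8.99% at 6 h. The share was lower at 6 h in 4 of 4 animals and the ranges did not overlap. An exact sign-flip permutation test over 4 pairs gave p = 0.125 (two-sided), which is the smallest value that 4 pairs allow. At 0 h the share was 10.4 ± 0.0838% (SD, n = 4), close to the upper 2 h values. Reduced to an equal depth of 59232828 counts per sum, 19880 ± 582 genes had a count at 2 h and 20642 ± 311 at 6 h (SD, n = 4). More genes were seen at 6 h in 4 of 4 animals, with ranges that overlapped (19222 to 20588 against 20378 to 21089; exact permutation p = 0.125). At 0 h the number was 20306 ± 552. The lowest 2 h number and the highest 2 h share both come from the sum of animal 38157, which holds the library that stood apart. Without that library its share was 10.2%. At the lower depth this allows, 44543333 counts, 19113 to 20055 genes had a count at 2 h and 19873 to 20530 at 6 h, again more at 6 h in 4 of 4 animals.

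The animals moved alike. The root mean square log2 change from 2 h to 6 h, over the 10101 genes averaging 5 CPM or more, was 0.757, 0.755, 0.744 and 0.779 in animals 38142, 38147, 38155 and 38157. Its mean was 0.759 ± 0.0146 (SD, n = 4). The interval from 0 h to 2 h gave 0.825 ± 0.0231 and the one from 6 h to 12 h gave 0.376 ± 0.017, so the step from 2 h to 6 h was smaller than the first one and larger than the next in 4 of 4 animals. The intervals differ in length. Across the same genes, which are not independent replicates, the changes of any 2 animals correlated with r between 0.87 and 0.91. When genes were called in 3 animals and read in the fourth, 95.8% to 97.7% of those called higher and 96.1% to 97.2% of those called lower had the same direction. Over all genes tested, each direction was seen for 48.6% to 50.5% in an animal.

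Tokens of unexplained meaning in the column names were treated as possible batches. They were spread over both times, with Lib1 GL75 on 4 libraries at 2 h and 6 at 6 h, Lib1 GL67 on 4 and 2, Lib1 GL66 on 2 and 1, Lib2 GL75 on 1 and 2, and Lib1 merged on 1 and 1. Within Lib1 GL75, animals 38147 (2 libraries at 2 h, 3 at 6 h) and 38157 (1 and 1) have libraries at both times. Genes were called without the 2 h and 6 h libraries of that token and then read inside it. In animal 38147, 95.9% of 4445 genes called higher and 97.7% of 4216 called lower had the same direction. In animal 38157, whose 2 h library there is the one that stood apart, the shares were 91.9% and 89.7%. Among genes not called, 46.5% were higher at 6 h inside the token in animal 38147 and 50.4% in animal 38157. Outside the token 4 sums were left at 2 h and 3 at 6 h, since all 3 libraries of animal 38147 at 6 h carry it. The 2 h libraries of both animals outside the token took part in the choice, and so did the 6 h libraries of animal 38157 outside it. With the token as a term and libraries entered singly, 5376 genes were higher and 5542 lower.

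To ask which early changes went back, each gene was first placed by its change from 0 h to 2 h. By 2 h, 4451 genes had risen (24.5%) and 5172 had fallen (28.4%). The median gene had then changed by -0.131 (log2), so the excess of falls is relative to the scaling. Of the 4451 risen genes, 2637 (59.2%) were then called lower at 6 h than at 2 h, 430 (9.66%) rose further, and 1384 (31.1%) were not called between both times. Of the 5172 fallen genes, 2986 (57.7%) were called higher at 6 h than at 2 h, 410 (7.93%) fell further, and 1776 (34.3%) were not called. Over all genes tested 26.1% were lower and 26.8% higher at 6 h than at 2 h, and among the 8574 genes not called by 2 h the shares were 19.9% and 17.1%. These shares are not matched for level, and calls between 2 h and 6 h went with level. Below 1 CPM 23.4% of genes were called, against 72.9% at or above 100 CPM. Median levels at 2 h were 59.8 CPM for the early rises then lower and 10.4 CPM for the early falls then higher. For genes called in neither interval the median was 0.378 CPM. Without the library that stood apart, 2560 early rises were then lower and 3009 early falls then higher. Genes not called at 2 h gave the remaining changes, 1468 later rises and 1710 later falls. Looked at from 6 h, opposite early changes preceded 61.1% of the rises and 55.4% of the falls between 2 h and 6 h. Among the 1861 genes that rose at least 2-fold from 2 h to 6 h, 1180 had fallen by 2 h, 616 had not been called and 65 had risen. Among the 1396 that fell at least 2-fold, 677 had risen by 2 h, 614 had not been called and 7.52% had fallen.

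**Figure D1:**
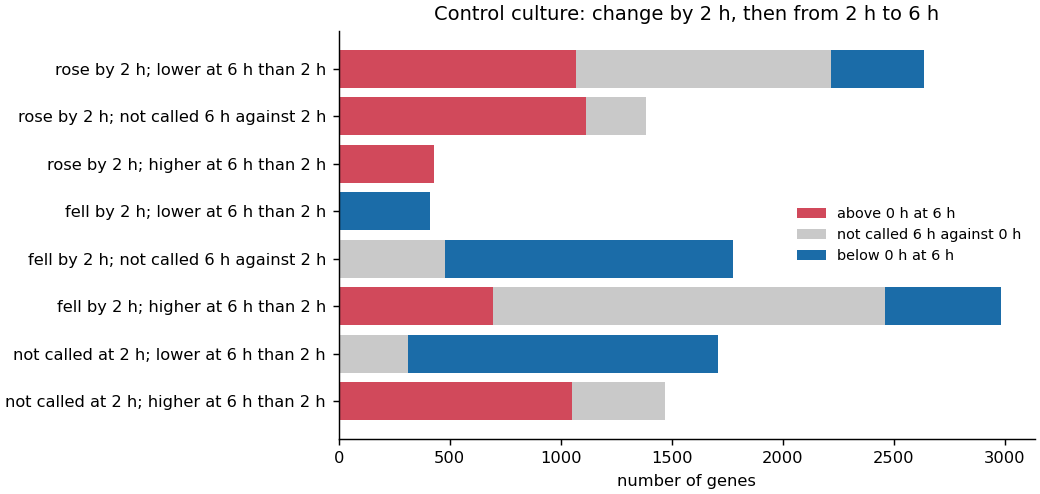
Number of genes (x axis) in each class of change by 2 h and from 2 h to 6 h (rows), coloured by the call at 6 h against 0 h. The longest bars are the 2637 early rises that were then lower and the 2986 early falls that were then higher, and grey, not called against 0 h, fills 1150 and 1767 of them. Genes called in neither interval are not drawn.

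These counts describe 1 set of samples and are not independent of each other. The 2 h sums enter both intervals with opposite sign, so chance variation at 2 h by itself puts genes into the classes that go back. The level at 6 h against 0 h, which shares the 0 h and the 6 h sums with them, is given beside the counts. Against 0 h, 4638 genes were higher at 6 h (25.5%) and 4632 lower (25.5%). Of the 2637 early rises that went down, 1150 (43.6%) were no longer called against 0 h, 1070 were still above it, and 417 had passed below it. Of the 2986 early falls that went up, 1767 (59.2%) were no longer called against 0 h, 523 were still below it and 696 had passed above it. Not being called does not show that a gene was back at its first level. Fitted differences from 0 h of less than 0.5 on the log2 scale were found for 66.8% of the former and 79% of the latter. The share was 59.2% of the genes called in neither interval. Those genes were much rarer, with a median of 0.424 CPM at 0 h. Early rises that went down had 32.5 CPM and early falls that went up 17.8 CPM, so the shares are not matched for level. The same share was 29.5% of the early rises and 31.5% of the early falls that were not called from 2 h to 6 h.

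Opposite changes followed early changes of every size, in 45.4% to 67.5% of the genes of a size class, against 26.1% lower and 26.8% higher over all genes tested. Among early rises of 1 to 2 on the log2 scale (1328 genes), 67.5% were called lower at 6 h than at 2 h. Among those of 2 to 3 (247 genes) the share was 55.5%, and among those above 3 (163 genes) it was 45.4%. The last group went from a median of 3.86 at 2 h to 3.02 at 6 h. Early falls of 1 to 2 (1542 genes) were followed by a rise in 59.4%, and falls above 3 (70 genes) in 50%, with medians of -3.49 at 2 h and -0.966 at 6 h. With a limit of at least 2-fold by 2 h, 1108 of 1738 rises (63.8%) were then called lower and 1065 of 1840 falls (57.9%) were then called higher. As above, these shares come from intervals that share their sums, and the shares over all genes tested are not matched for level.

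Genes were therefore also chosen in 3 animals and their course read in the fourth, whose sums had no part in the choice. The 2 h and 6 h changes of that animal are both taken from its own 0 h sum. Genes that had risen at least 2-fold by 2 h in the other animals numbered 1620 to 1747. In the animal left out, they stood at a median of 1.47, 1.24, 1.30 and 1.33 above 0 h on the log2 scale at 2 h (animals 38142, 38147, 38155 and 38157). At 6 h the medians were 0.76, 0.70, 0.69 and 0.78. Every animal was lower at 6 h and the 2 h and 6 h values did not overlap. The ratio of both medians shows that 54.8 ± 3.21% (SD, n = 4) of the rise was left at 6 h. The part left was 49 ± 4.6% at 12 h and 46.5 ± 2.94% at 48 h, so most of the loss lay between 2 h and 6 h.

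By their medians, early falls went back further. Genes that had fallen at least 2-fold by 2 h in the other animals numbered 1581 to 1774. In the animal left out, their medians at 2 h were -1.23, -1.18, -1.12 and -1.26 in the same order, and at 6 h they were -0.34, -0.41, -0.33 and -0.43. Of the fall, 31.6 ± 3.21% (SD, n = 4) was left at 6 h and 18.9 ± 3.55% at 12 h. By 48 h, 4.36 ± 8.64% was left. The share left at 6 h was higher for rises than for falls in 4 of 4 animals, by 23.3 ± 1.27 percentage points (exact sign-flip permutation test, two-sided p = 0.125, the smallest value possible with 4 animals). With each value taken relative to the median of all genes, 52.3 ± 2.87% of the rise and 32.9 ± 4.09% of the fall were left, again higher for rises in 4 of 4 animals (exact p = 0.125). In animal 38157, whose 2 h sum holds the library that stood apart, 58.7% of the rise and 34% of the fall were left. In the other animals the values were 51.7% to 56.2% for rises and 27.8% to 34.5% for falls.

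**Figure D2:**
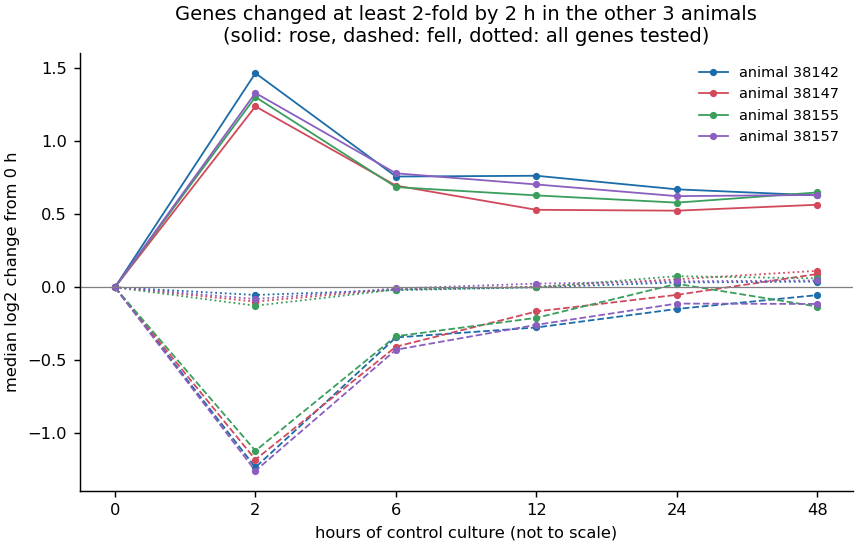
Median log2 change from 0 h (y axis) over hours of control culture (x axis, not to scale) for genes that rose (solid) or fell (dashed) at least 2-fold by 2 h in the other 3 animals, and for all genes tested (dotted). Each line is the animal left out of the choice. Rises peak at 1.24 to 1.47 at 2 h and stay above 0.5 to 48 h, while falls come close to 0.

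Counted by single genes and averaged over the animals, the order of rises and falls was not that of the medians. Animal 38157 was an exception. In the animal left out, 77.6 ± 2.93% of the early rises lay nearer to their 0 h level at 6 h than at 2 h (SD, n = 4), and 73.8 ± 1.97% of the early falls did. In animals 38142, 38147, 38155 and 38157 the shares were 81.8%, 75.8%, 77.6% and 75.4% for rises. For falls they were 74.8%, 72.9%, 71.5% and 75.9%. Over all genes tested the share was 53.7 ± 1.24%. In the same animals, 80 ± 2.98% of the early rises were lower at 6 h than at 2 h, against 49.2 ± 0.699% of all genes. Of the early falls, 78.7 ± 2.18% were higher at 6 h, against 49.9 ± 0.729% of all genes. In animal 38157, 77% of the early rises were lower and 80% of the early falls higher.

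The same reading was made for 8 classes, formed in 3 animals from the calls of both intervals. Genes that rose by 2 h and were then lower, called spikes below (2205 to 2465 genes), stood at 0.89 ± 0.07 at 2 h in the animal left out (median log2 change from 0 h; mean ± SD over 4 animals). At 6 h they stood at 0.18 ± 0.04, and from 12 h on between 0.05 ± 0.04 and 0.10 ± 0.06. Genes that fell by 2 h and were then higher, called dips (2532 to 2772 genes), went from -0.78 ± 0.04 at 2 h to 0.04 ± 0.05 at 6 h. They ended at 0.15 ± 0.10 at 48 h. Spikes were abundant, with a median of 32.5 CPM at 0 h in the fit on all animals, and dips had 17.8 CPM.

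Other early changes had largely not gone back by 6 h, and the falls among them returned in part later. Genes that rose by 2 h and were not called afterwards (1413 to 1504 genes) stood at 0.75 ± 0.10 at 2 h, 0.67 ± 0.04 at 6 h and 0.62 ± 0.05 at 48 h. Their counterparts that fell (1533 to 1647 genes) recovered in part, from -0.69 ± 0.06 at 2 h and -0.60 ± 0.02 at 6 h to -0.35 ± 0.09 at 48 h. Continued rises (303 to 344 genes) climbed from 0.59 ± 0.16 at 2 h to 1.146 ± 0.08 at 6 h and were at 1.13 ± 0.10 at 48 h. Continued falls (235 to 308 genes) went from -0.61 ± 0.11 to -1.27 ± 0.05 at 6 h, the lowest median of any class and time, and returned to -0.85 ± 0.01 by 48 h.

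The medians of changes first called between 2 h and 6 h kept their 6 h level. Late rises, not called at 2 h and higher at 6 h (1418 to 1508 genes), were at -0.11 ± 0.09 at 2 h, 0.62 ± 0.05 at 6 h and 0.66 ± 0.07 at 48 h. Late falls (1573 to 1681 genes) were at 0.00 ± 0.10 at 2 h, -0.63 ± 0.08 at 6 h and -0.64 ± 0.09 at 48 h. In the fit on all animals the late rises were rare transcripts, with a median of 3.74 CPM at 0 h, and the late falls had 16.4 CPM. In that fit, 419 of the 1468 late rises and 313 of the 1710 late falls were not called at 6 h against 0 h.

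**Figure D3:**
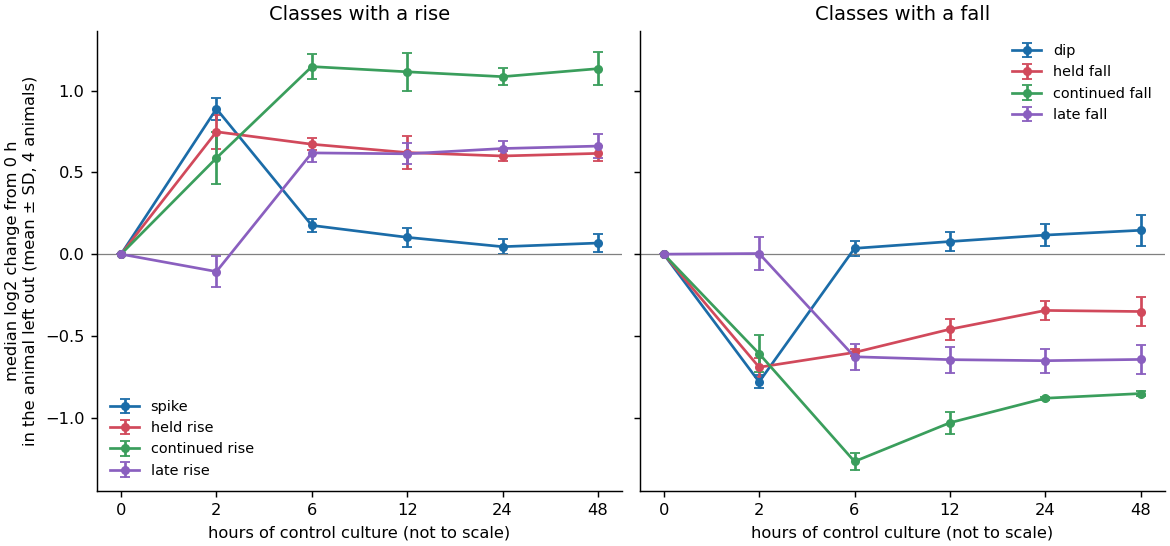
Median log2 change from 0 h (y axis) over hours of control culture (x axis, not to scale) for the 8 classes, formed in 3 animals and read in the animal left out. Points are means over 4 animals and bars SD. Spikes and dips return to near 0 by 6 h, and the late classes keep their 6 h level to 48 h.

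The gene IDs with the largest changes show 3 such courses. Their role is not described, because the tables give IDs only. They were taken by size from 3189 genes that rose and 3639 that fell under the naming rule, so their values are a description and support nothing further. ENSMFAG00000038029 had the largest fall. It stood at 103.8, 86.4, 88.3 and 129.4 CPM at 2 h in animals 38142, 38147, 38155 and 38157, and at 1.53, 1.36, 1.01 and 2.65 CPM at 6 h. All 2 h values lay above all 6 h values, and over single libraries the lowest at 2 h was 69.3 CPM and the highest at 6 h 3.10 CPM. The log2 fold change was -6.001 ± 0.285 (SE; edgeR adjusted p = 5.4e-18). It had not been called by 2 h, with 90.4 ± 28.4 CPM (SD, n = 4) at 0 h. It stayed low, at 0.736 ± 0.251 CPM at 48 h, and is thus a late fall.

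ENSMFAG00000035794 was a spike. It rose from 4.03 ± 1.58 CPM at 0 h to 151.7, 117.7, 56.2 and 202.6 CPM at 2 h in the same order of animals. At 6 h it was at 8.15, 5.94, 2.40 and 11.7 CPM, below every 2 h value. The log2 fold change was 4.997 ± 0.604 from 0 h to 2 h (SE; edgeR adjusted p = 1.8e-08) and -4.30 ± 0.58 from 2 h to 6 h (adjusted p = 1.6e-07). At 6 h against 0 h it was 0.70 ± 0.54 and did not pass the test (adjusted p = 0.29). Animal 38155 was lowest at 0 h, 2 h and 6 h, and the order of the animals was the same at 2 h and 6 h.

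Both IDs with the largest rise were near the lower limit of measurement until 2 h. ENSMFAG00000044742 was at 0.192, 0.169, 0.142 and 0.120 CPM at 2 h (41 counts over the 4 sums). At 6 h it was at 12.7, 4.78, 3.92 and 18.3 CPM in the same order of animals. No values overlapped, and the log2 fold change was 5.87 ± 0.50 (SE; edgeR adjusted p = 1.1e-11). The level went on to 57 ± 31.9 CPM at 12 h and 63.6 ± 31.8 CPM at 24 h, and held 28.7 ± 5.7 CPM at 48 h (SD, n = 4).

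ENSMFAG00000039255 went from 0.632, 0.554, 0.231 and 0.330 CPM at 2 h to 8.03, 13.2, 2.91 and 12.8 CPM at 6 h. The log2 fold change was 4.44 ± 0.65 (SE; edgeR adjusted p = 6.1e-07). Its first step from 0 h to 2 h, 1.30 ± 0.81, did not pass the test (adjusted p = 0.19). Animal 38155 held the lowest level at both times, and at 24 h it had 3.41 CPM where the other 3 had 23.7 to 38.2 CPM.

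**Figure D4:**
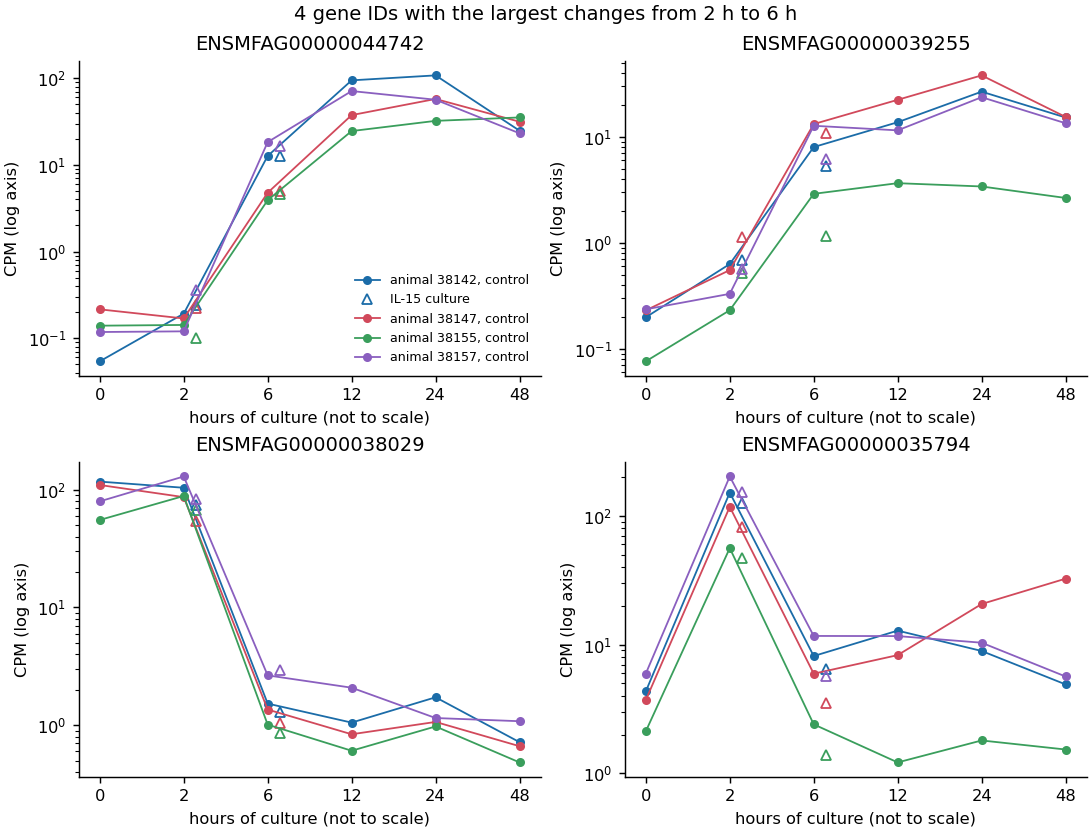
CPM on a log axis (y) over hours of culture (x, not to scale) for the 4 IDs. Lines and dots are control sums of 3 libraries, 1 colour per animal, and open triangles are IL-15 cultures of the same animals at 2 h and 6 h. From 2 h to 6 h the upper IDs rise and the lower IDs fall in every animal, and the triangles move the same way.

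Cultures with IL-15 provided separate libraries of the same animals for the same interval. There, 4719 genes were higher at 6 h than at 2 h (25.9%) and 4411 lower (24.2%). Of the 4884 genes that rose in control culture, 3828 (78.4%) were also called higher with IL-15 and 17 were called lower. Of the 4757 that fell, 3669 (77.1%) were also called lower and 26 were called higher. The fitted change had the same sign in 97.1% and 96.7% of them. Median log2 changes were 0.82 in control culture and 0.69 with IL-15 for the risen genes, and -0.69 and -0.56 for the fallen genes. The genes were chosen in the control libraries, which by itself can make the control medians the larger.

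The classes kept their direction in these libraries too. Read in the animal left out, spikes changed by -0.59 ± 0.03 from 2 h to 6 h with IL-15 (median log2; mean ± SD, n = 4) and by -0.67 ± 0.07 in control culture. Dips changed by 0.79 ± 0.02 with IL-15 and by 0.82 ± 0.02 in control culture. Late rises changed by 0.58 ± 0.04 and 0.72 ± 0.04, and late falls by -0.55 ± 0.04 and -0.67 ± 0.03. In every animal left out, the control change of each of these classes was the larger in size. The classes were formed from control libraries of the other animals, and the cause of this gap was not tested.

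The difference between both kinds of culture was tested gene by gene. It passed for 295 genes (1.62% of those tested; edgeR test of the difference of both changes, adjusted p under 0.05). Among the genes that rose at least 2-fold in control culture it passed for 48 of 1861 (2.58%), and among those that fell at least 2-fold for 33 of 1396 (2.36%). The control sums enter both the choice of these genes and the test, so nothing is read from the difference between these shares and that of all genes. Of the named IDs, 0 of 4 passed. The differences ranged from -1.76 ± 0.85 for ENSMFAG00000039255 (SE; edgeR adjusted p = 0.41) to 0.41 ± 0.35 for ENSMFAG00000038029 (adjusted p = 0.74). With standard errors of this size, such a result does not show that both kinds of culture behaved alike.

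**Figure D5:**
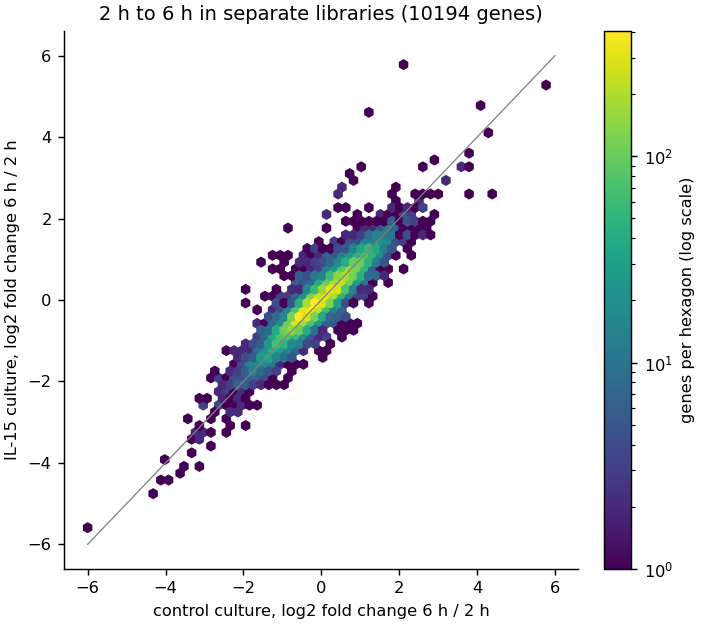
Log2 fold change from 2 h to 6 h in control culture (x axis) and in IL-15 culture (y axis) for 10194 genes with at least 5 CPM in control culture at either time. Colour gives the number of genes per hexagon on a log scale, and the line marks equal changes. Both changes have the same sign for 88.9% of the genes plotted.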

How the data were processed

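Comparisons were made on 2 tables that the authors deposited, which give raw counts per gene (whole numbers, not normalized). The cynomolgus table (38550 rows) was used, and the rhesus table (35432 rows) was an alternative. For alignment, counting, genome build and annotation, tools and versions were not given in the sources used here. Protocols in the labels name the Qiagen RNeasy Mini and KAPA mRNA HyperPrep kits. Gene IDs came without symbols and 0 matched the reference table, so lists of pathway genes and cell type markers could not be run. Columns without a sample numbered 0.

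Counts of the 3 libraries of an animal and group were summed, because the labels do not say whether these are separate cultures. All 44 sums were fitted together with edgeR 4.0.16 in R 4.3.3 (TMM, filterByExpr, robust quasi-likelihood test, a term for the animal). Genes were called at a Benjamini-Hochberg adjusted p under 0.05 over the 18197 tested. The labels name the same animal at each time, which pairs the sums. Deviations of an animal's 2 h and 6 h sums from their group means correlated across genes at r = 0.81 to 0.86 in 4 of 4 animals. Single-animal log2 changes used CPM with a prior count of 2. For the courses in a left-out animal, genes were chosen in a fit on the other 3. A library was taken to stand apart when its distance to the nearer sister exceeded the median by 5 scaled median absolute deviations. DESeq2 1.42.0, limma 3.58.1 (voom), other scalings, filters and sets of samples were alternatives. The edgeR fit was tested on simulated data. Counting error understates the spread between sister libraries, as given above. Reads copied by PCR need not be independent molecules, and their part in this spread was not tested.

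The comparison, the classes and the rules were chosen with earlier results of these data known. The named IDs have the 2 highest and 2 lowest log2 fold changes among called genes that reached 5 CPM at either time and moved one way in 4 of 4 animals. The 8 classes by course, the comparison of rises with falls and the abundance measures were added after the data were seen.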

Additional observations from a re-analysis of the deposited data

Results flagged for a closer look

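In 46 sets of 4 animals checked for a value far from the other 3, 3 were found, and chance gives about 1 in 20 (2.3). ENSMFAG00000039255 had 2.66 CPM at 48 h in control culture of animal 38155, below the 13.5 to 15.5 CPM of the other animals. ENSMFAG00000035794 had 32.5 CPM at 48 h in animal 38147, above the 1.53 to 5.65 CPM of the others. The root mean square log2 change from 24 h to 48 h was 0.307 in animal 38157 and 0.434 to 0.443 in the others. The 48 h sums are part of the fit of all 44 sums. With only the 8 sums at 2 h and 6 h fitted, the log2 fold changes from 2 h to 6 h were 4.33 for ENSMFAG00000039255 and -4.29 for ENSMFAG00000035794.

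The change from 2 h to 6 h differed between IL-15 and control culture for 295 genes (edgeR test of the difference, adjusted p under 0.05). It was more positive with IL-15 for 164 of them and more negative for the others. Of the 295, 210 were also called between 2 h and 6 h in control culture, where 53% of all genes tested were called. The control sums enter both tests, so nothing is read from this overlap. At an unadjusted p under 0.05, 2189 genes passed.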

How the results depend on the processing

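Calls between 2 h and 6 h were refitted under 20 alternatives, 2 of them (the library that stood apart left out, and the column-name token as a term) chosen after seeing the data. Genes higher at 6 h numbered 3448 to 5376 and genes lower 3264 to 5542, within 1.5 times the reported counts under each. Early rises then called lower numbered 1883 to 3123 and early falls then called higher 2042 to 3522 over 19 alternatives. In the 19 alternatives on the cynomolgus table, 0 genes called in the reported fit were called in the opposite direction. The fit without the animal term (no replicate block), in which the sums are not paired, called 3559 and 3264. Libraries entered singly with animal and library number as a replicate block gave 5352 and 5485. With 1 animal or 1 library number left out, 4278 to 4639 were higher and 4106 to 4753 lower. With a stricter filter on low counts (a mean of at least 5 CPM), changes of at least 2-fold numbered 791 higher and 668 lower. That filter leaves 10111 genes to test. It also put the part of the early falls left at 6 h at 25.5%, against 31.6%; the cause was not tested. In the rhesus table, 4601 genes were higher and 4705 lower, with 61% of early rises and 57.9% of early falls then called in the opposite direction. Early changes that went back could not be counted from the 8 sums at 2 h and 6 h alone, which hold no 0 h values. The 4 named IDs kept direction and call in 19 of 19 alternatives each. Of the 5462 genes below 1 CPM 23.4% were called, against 72.9% of those at or above 100 CPM, and the part of depth in this was not tested.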
